A study of Mus musculus with 6 samples.

Results

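Among the circular RNAs of the mouse ovary measured here, 94 were of middling abundance on average and yet differed widely between libraries of the same group. They were chosen from the abundance table by 3 conditions on RPM, the reads of a circRNA scaled to the same sum in each library. The mean over the 6 libraries had to lie from 50 to under 1000 RPM. Within the normal pressure libraries or within the hypobaric hypoxia libraries, the highest value had to be at least 4 times the lowest, which is called the spread here. The group means had to differ by less than 4-fold. A pseudocount of 4.765 RPM, the median over libraries of the smallest value above 0, was added to both values in each ratio. The table listed 57233 circRNAs, of which 3010 lay in the abundance range after 26 listed exceptions were set aside, and the 94 were 3.12% of these. The other 2916 serve as the background below.

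The mice were females of the inbred strain C57BL/6J, 15 per group, given as 8 weeks old in the design text and as 6 to 8 weeks old in the sample descriptions. Mice of both groups first received levonorgestrel and ethinylestradiol by gavage to synchronize their cycles; doses of 0.1 and 0.02 mg/kg are stated for the hypoxia mice. The normal pressure group then lived for 15 days in Lanzhou at 83.56 kPa (oxygen 17.8 kPa), and the hypobaric hypoxia group for 15 days in a chamber at 43.12 kPa (oxygen 8.1 kPa). The chamber is described as 6500 m of altitude in the titles and as 5000 m in the sample descriptions. Each group gave 3 libraries, all of batch 1. Whether a library holds 1 mouse or a pool is not said, so differences between libraries of a group may be biological or technical. In whole ovary, fewer cells of a type and less circRNA per cell cannot be told apart. The IDs are numbers without host genes, coordinates or sequences. The ovary label could therefore not be checked against marker genes, and no sequence is shown.

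A circRNA forms when the splicing machinery links an exon's end backwards to its own beginning or to that of an exon further upstream, which closes the RNA into a ring. Having no free ends, such RNAs resist the exonuclease RNase R and tend to be longer lived than linear transcripts. Several have been described in granulosa cells and oocytes, and some bind microRNAs or proteins.

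Depth differed between libraries. RPM values were whole multiples of the RPM of 1 read, and the reads recovered this way numbered 365070, 151364 and 369055 in the normal pressure group against 500927, 526621 and 487143 under hypoxia. Here and below, sets of 3 values follow the order of replicates 1, 2 and 3. One read was worth 6.61 RPM in normal pressure replicate 2 and between 1.90 and 2.74 RPM in the other 5 libraries. With the smallest value above 0 taken as 2 reads, no circRNA is listed with 1 read, so a value of 0 can stand for 0 or 1 read. Normal pressure replicate 2 is thus the library in which a level near 50 RPM rests on the fewest reads, and results without it are given below.

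The spread lay almost entirely on the normal pressure side. Of the 94 circRNAs, 92 met the 4-fold limit over the normal pressure libraries, 2 met it over the hypobaric hypoxia libraries, and 0 met it in both. Over the whole abundance range such a spread was seen in 3.22% of circRNAs at normal pressure and in 0.0997% under hypoxia, which is 97 and 3 of 3010. These values chose the members and are given without a test. The 92 had a median normal pressure spread of 5.49-fold, with a range from 4.01 to 70.4, against 1.56-fold over the other circRNAs of the abundance range. Between normal pressure replicates 1 and 3 alone, leaving the shallow replicate 2 aside, 18 of the 3010 circRNAs and 17 of the 92 were 4-fold or more apart, and the median ratio over the 92 was 2.01-fold. A further 5 circRNAs met the spread limit but had group means at least 4-fold apart, and so do not belong. In 3 of these 5, normal pressure replicate 2 held 363, 1764 and 4671 RPM while each of the other 5 libraries was listed at 0. In another, normal pressure replicate 3 held 306 RPM and the rest were at 0.

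The 92 circRNAs fell into 6 patterns according to which normal pressure library stood apart from the other two on the log scale. Replicate 2 was low in 47, replicate 1 was low in 15 and replicate 3 was low in 10. Replicate 2 was high in 11, replicate 3 in 5 and replicate 1 in 4. Replicate 2 was the highest or the lowest of its group in 83 of the 92. In the remaining 9 it lay between the other two, as in novel_circ_044166, which had 0, 39.6 and 138 RPM at normal pressure. That circRNA was chosen after its values were seen. Replicate 2 was the highest of its group in 32.6% of the 92 and the lowest in 57.6%. Over the other 2916 circRNAs of the abundance range these shares were 42.4% and 30.8%. Any library is often an extreme of its group, and these values chose the members, so nothing is read from the 83.

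**Figure D1:**
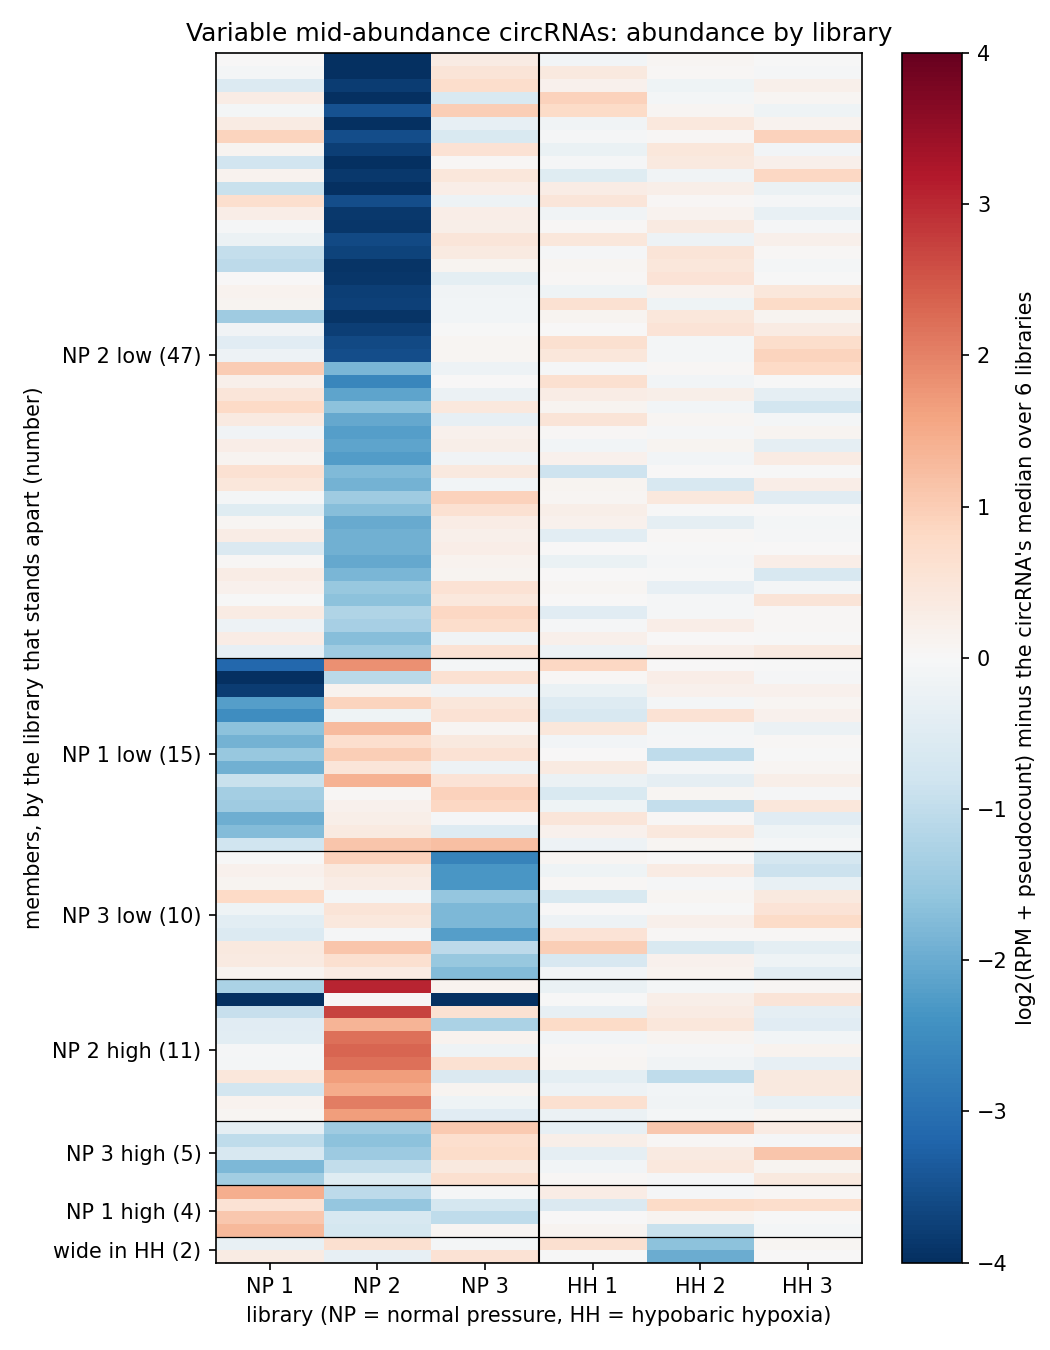
Abundance of the 94 circRNAs (rows) in the 6 libraries (columns) as log2(RPM + 4.765) minus the circRNA's median over the libraries, with rows ordered by the normal pressure library that stands apart and the number of rows in each pattern in brackets; colours end at 4 and -4. The darkest cells sit in the normal pressure columns, most of them in replicate 2, while the hypobaric hypoxia columns are pale except in replicate 2 of the bottom 2 rows.

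The largest pattern was that of circRNAs missing or scarce in normal pressure replicate 2 alone. Of its 47 circRNAs, 24 were listed at 0 in that library, 11 had 2 reads there and 12 had more, up to 7 reads. In normal pressure replicates 1 and 3 the same 47 had medians of 71.2 and 78.6 RPM, and their hypobaric hypoxia means had a median of 77.0 RPM. Replicates 1 and 3 were less than 2-fold apart in 38 of the 47. The other 2 normal pressure libraries thus lay close to each other in most of these circRNAs, which the way the pattern is defined favours, and the group's spread came from the remaining one.

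The widest spread was that of novel_circ_027516. It had 266, 0 and 331 RPM at normal pressure and 239.6, 275 and 257 RPM under hypoxia. The other 5 libraries lay within a narrow band and replicate 2 of normal pressure was listed at 0. The reads behind these values were 97, 0 and 122 at normal pressure and 120, 145 and 125 under hypoxia. From the mean of its group mates, 45.1 reads would have been counted in replicate 2 at the same level. A listing at 0 there allows at most 36.8 RPM (95% exact Poisson limit for the 1 read that would go unlisted, covering counting error only). Its normal pressure spread was 70.4-fold, and its hypoxia values had a mean of 257 ± 17.9 RPM (SD, n = 3). The nearest listed circRNAs of at least 10 RPM on either side by ID number did not share the gap, with 85.9 RPM for novel_circ_027517 and 59.5 RPM for novel_circ_027515 in the same library. A little farther off, novel_circ_027523 did, with 57.5, 0 and 73.2 RPM at normal pressure, and the scarcer novel_circ_027511 had 16.4, 0 and 16.3 RPM. The others within 10 ID numbers had 39.6 to 2160 RPM there.

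The 24 circRNAs listed at 0 in replicate 2 of normal pressure were all present in the hypobaric hypoxia libraries. Scaled from the mean of replicates 1 and 3, they would have had between 6.37 and 45.1 reads there, with a median of 9.82. The lower limit on the mean RPM nearly fixes such numbers for a circRNA at 0 in 1 library, so nothing is read from them. In hypobaric hypoxia the same 24 ranged from 43.1 to 275 RPM in single libraries, and none was listed at 0. Within the abundance range, members included, 25 circRNAs were listed at 0 in normal pressure replicate 2, 7 in replicate 1, 4 in replicate 3, and 4, 5 and 4 in the hypobaric hypoxia libraries. The rule takes nearly every circRNA of this range that is at 0 in 1 library of a group, so the 24 say nothing of how common such gaps are. Depth moved with this pattern, since the library with most gaps was also the shallowest, and its part was not tested.

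Another example was novel_circ_023460, the widest spread with normal pressure replicate 1 highest. It had 101, 0 and 51.5 RPM at normal pressure and 159.7, 77.9 and 86.2 RPM under hypoxia. Here replicate 2 was the low one again, and the hypoxia libraries also differed, by 1.99-fold. Just inside the 4-fold limit was novel_circ_023293, with 90.4, 39.6 and 173 RPM at normal pressure and 99.8, 133 and 148 RPM under hypoxia, a spread of 4.01-fold. Just outside was novel_circ_036280, whose hypoxia spread of 3.998-fold came from 136, 30.4 and 80.1 RPM, with 16.4, 26.4 and 54.2 RPM in normal pressure.

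The pattern with replicate 2 high was smaller and included 2 of the 3 members of highest mean. Its 11 circRNAs had between 79.3 and 925 RPM in normal pressure replicate 2, on 12 to 140 reads, with a median of 172 RPM. Their medians in replicates 1 and 3 were 41.1 and 43.4 RPM, and the median of their hypobaric hypoxia means was 59.8 RPM.

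The member of highest mean was novel_circ_018966. It had 71.2, 925 and 214 RPM at normal pressure and 109.8, 177 and 107 RPM under hypoxia. Next to it by number, novel_circ_018965 had 27.4, 634 and 81.3 RPM at normal pressure and 59.9, 68.4 and 78.0 RPM under hypoxia. Both were far higher in replicate 2 of normal pressure than in any other library, on 140 and 96 reads, and in both replicate 1 was the lowest library of all 6. Their normal pressure spreads were 12.2-fold and 19.9-fold. This was the only couple of members with consecutive ID numbers. Within normal pressure the mean of novel_circ_018966 was 403 RPM with an SD of 457 (n = 3), so the SD exceeded the mean, while under hypoxia it was 131 ± 39.5 RPM (SD, n = 3).

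The third of the most abundant members, novel_circ_041063, had 107, 680.5 and 159.9 RPM at normal pressure and 132, 156 and 131 RPM under hypoxia. Again 5 libraries lay close together and replicate 2 of normal pressure was high, on 103 reads. Its neighbour by number, novel_circ_041064, is too scarce to be a member and had 8.22, 52.9 and 10.8 RPM at normal pressure, with replicate 2 at 5.55 times the mean of the other two.

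Some circRNAs with nearby ID numbers shared a high value in that library. Chosen after their values were seen, novel_circ_040007 and novel_circ_040014 had 330.3 and 218 RPM in normal pressure replicate 2, which is 5.77 and 4.44 times the mean of replicates 1 and 3. Between them, novel_circ_040008 and novel_circ_040013, which are not members, stood at 2.78 and 3.51 times, while novel_circ_040010 stood at 1.39 times and novel_circ_040006, just before them, at 1.04 times. For each of the 6 patterns, circRNAs of at least 10 RPM within 10 ID numbers of its members, and not members themselves, were compared with all 9974 such circRNAs outside the set. Of the 28 near the 11 members high in replicate 2, 39.3% were highest in that library, against 36.6% over all. Of the 189 near the 47 low in replicate 2, 40.2% were lowest there, against 37.0% over all. The differences were wider for replicate 1 low, with 35.3% of 68 against 27.5%, for replicate 3 high, with 38.1% of 21 against 30.8%, and for replicate 1 high, with 38.5% of 13 against 32.4%. For replicate 3 low the shares were 29.5% of 44 and 28.4%. The share near members was the higher one in all 6 patterns, by 1.12 to 7.81 percentage points. Several shares rest on few circRNAs, such as 5 of 13, 8 of 21 and 11 of 28. No test of this was made and nothing is read from it. Neighbours could also go the other way. Chosen after its values were seen, novel_circ_018957, near novel_circ_018965, had 24.7, 0 and 35.2 RPM at normal pressure. What the numbering of IDs follows is not given in the sources used here.

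A different case within the same pattern was novel_circ_041059, chosen after its values were seen. It was listed at 0 in normal pressure replicates 1 and 3, at 79.3 RPM in replicate 2, and at 75.9, 93.1 and 113 RPM under hypoxia. Here replicate 2, called high within its group, lay at the level of the hypoxia libraries, and the other normal pressure libraries were the ones far from it. Its log2 difference of hypoxia from normal pressure, on the log2(RPM + 4.765) scale, was 2.98 with a standard error of 0.77 (limma, Benjamini-Hochberg adjusted p = 0.136), so it did not pass the threshold of 0.05.

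**Figure D2:**
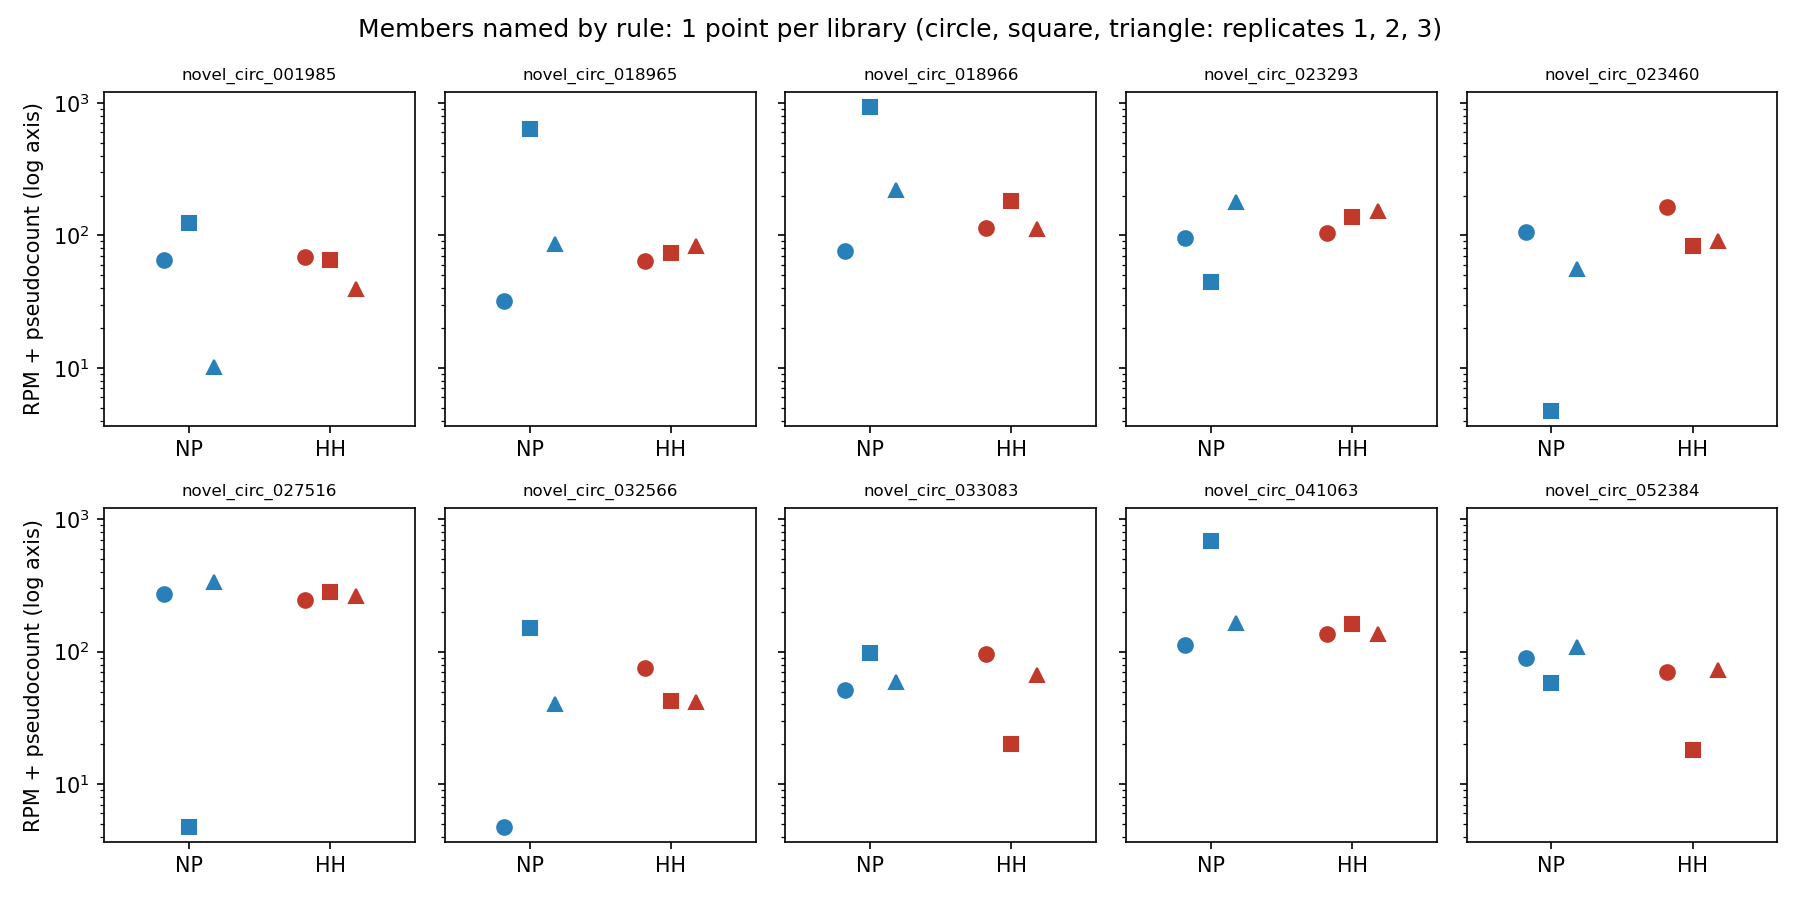
Abundance of 10 members named by rule, as RPM + 4.765 on a log axis, with 1 point per library, normal pressure (NP) in blue and hypobaric hypoxia (HH) in red; circles, squares and triangles are replicates 1, 2 and 3. In novel_circ_018965, novel_circ_018966 and novel_circ_041063 the normal pressure square lies above all other points, in novel_circ_027516 and novel_circ_023460 it lies below them, and in novel_circ_033083 and novel_circ_052384 the hypoxia square is the lowest point.

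Replicates 1 and 3 of normal pressure, which are deeper, also stood apart in some circRNAs. Replicate 1 was low in 15, where it had a median of 13.7 RPM against a median hypoxia mean of 57.7 RPM. The widest of these was novel_circ_032566, with 0, 145 and 35.2 RPM at normal pressure and 69.9, 38.0 and 37.0 RPM under hypoxia. Replicates 1 and 2 lay on opposite sides of the hypoxia values there, and the spread was 31.5-fold. A more abundant case, chosen after its values were seen, was novel_circ_042186, with 5.48, 152 and 125 RPM at normal pressure and 114, 156 and 154 RPM under hypoxia. Its level in replicate 1 rested on 2 reads, while the other 5 libraries had 23 to 82 reads.

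Replicate 3 was low in 10 circRNAs, with a median of 16.3 RPM against a median hypoxia mean of 63.5 RPM. The widest was novel_circ_001985, with 60.3, 119 and 5.42 RPM at normal pressure and 63.9, 60.8 and 34.9 RPM under hypoxia, a spread of 12.1-fold. Replicate 3 was the lowest of all 6 libraries, on 2 reads. The patterns with replicate 1 or 3 high held 4 and 5 circRNAs, with spreads up to 5.60-fold and 5.54-fold.

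The exact 95% Poisson intervals of the highest and the lowest library of the wide group did not overlap in 92 of the 94. The rule chose the members by the ratio of these very values, which makes such a count likely, and nothing about counting error is read from it. The 2 members whose intervals overlapped both belonged to the pattern with replicate 2 low. In the abundance range as a whole, members included, the highest and the lowest library had intervals apart in 19.7% of circRNAs at normal pressure and 19.6% under hypoxia. Over the hypoxia libraries, whose spread did not choose them, 18 of the 92 had intervals apart, or 19.6%, the same share as in the whole range. Those shares are not matched for abundance. The members had a median mean of 60.6 RPM against 101 over the others, and intervals narrow with more reads. These intervals treat reads as independent, which copies made by PCR are not.

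The hypobaric hypoxia libraries were less than 4-fold apart for 92 of these circRNAs. The other 2 members had the wide spread there, and in each replicate 2 was the low library. The wider was novel_circ_033083, with 91.8, 15.2 and 61.6 RPM under hypoxia and 46.6, 92.5 and 54.2 RPM at normal pressure, a hypoxia spread of 4.84-fold. Just over the limit was novel_circ_052384, with 65.9, 13.3 and 67.7 RPM under hypoxia and 84.9, 52.9 and 103 RPM at normal pressure, a spread of 4.02-fold. The low values rested on 8 and 7 reads, in the deepest of the 6 libraries.

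Choosing circRNAs by their normal pressure spread does not use their spread over the hypoxia libraries. The hypoxia level still enters the choice through the limits on the mean over the 6 libraries. Spread depends on reads, so the hypoxia spread is not fully separate from the choice. The abundance ranges compared below match that mean and not the hypoxia level. Of the 97 circRNAs of the abundance range with a 4-fold spread in normal pressure, 12 had a hypoxia spread of 2-fold or more, or 12.4%. Of these 97, 4 were listed at 0 in all 3 hypoxia libraries and have no hypoxia spread, and without them the share was 12 of 93, or 12.9%. Of the 2913 under 4-fold in normal pressure, 278 had such a spread, or 9.54%. CircRNAs of the same libraries are not replicates, so no interval or test is given. The median hypoxia spreads of the 93 and the 2913 were 1.47-fold and 1.38-fold. Abundance differed between these sets, with medians of 60.6 and 101 RPM. Among circRNAs of 50 to under 100 RPM alone, the shares were 14.8% of 81 and 15.5% of 1446, and the median hypoxia spread was 1.49-fold in both. Among those of 100 RPM or more, 0 of 12 and 54 of 1467 had such a hypoxia spread, and the medians were 1.36-fold and 1.29-fold. In the other direction only 3 circRNAs had a 4-fold hypoxia spread, and their median normal pressure spread was 1.89-fold, against 1.58-fold over the rest.

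**Figure D3:**
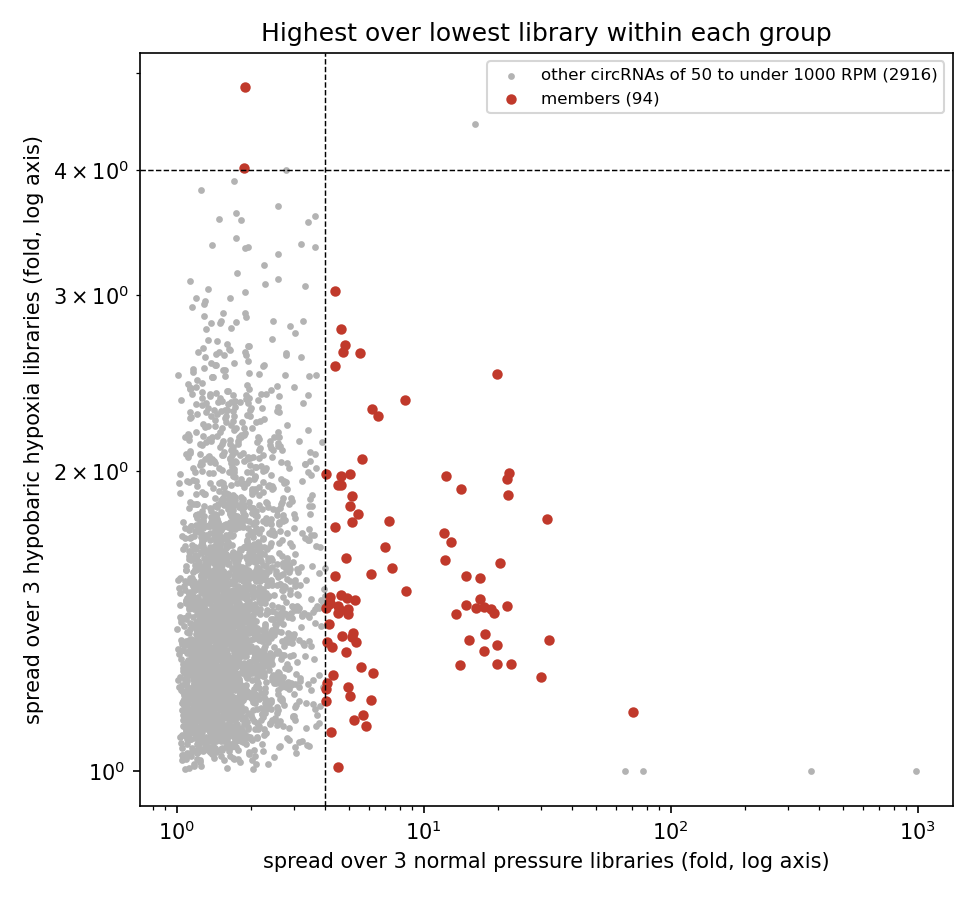
Spread over the 3 normal pressure libraries (x axis) against spread over the 3 hypobaric hypoxia libraries (y axis), each as highest over lowest RPM after adding 4.765, on log axes, for the 94 members (red) and the other 2916 circRNAs of 50 to under 1000 RPM (grey); dashed lines mark 4-fold. Members lie to the right of the vertical line at hypoxia spreads of 1.01 to 3.03, except 2 above the horizontal line, and grey points to the right are circRNAs left out because their group means differ at least 4-fold.

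The hypoxia mean entered the choice of members through the mean over the 6 libraries and the limit on group means, so the normal pressure libraries are set beside it as a description only. In 69 of the 92, at least 2 of the 3 normal pressure libraries were within 2-fold of the hypobaric hypoxia mean, in 23 only 1 was, and in 0 none was. As a coefficient of variation, the median over the 92 was 83.3% at normal pressure and 22.7% under hypoxia, against 23.9% and 17.6% over the other circRNAs. The normal pressure values chose the 92, and the hypoxia medians are not matched for abundance, so nothing is read from these differences.

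The members were scarcer than the rest of their abundance range. Their mean RPM ran from 50.1 to 267 with a median of 60.6, against a median of 101 over the others, and 82 of the 94 were under 100 RPM. They made up 5.36% of the circRNAs of 50 to under 100 RPM and 0.810% of those of 100 RPM or more. The rule uses the mean RPM, and a 4-fold ratio is reached more easily on few reads, so nothing is read from this. All 6 libraries showed 67 of the 94. The remaining 27 were listed at 0 somewhere, 24 of them in normal pressure replicate 2, 3 in replicate 1 and 1 in replicate 3, where 1 was at 0 in the last 2 alike, and 0 under hypoxia. Summed, the members' share of a library was 0.689% ± 0.0634 at normal pressure and 0.728% ± 0.00520 under hypoxia (SD, n = 3). In this sum normal pressure replicate 2 had 0.704%, between the 0.619% and 0.743% of replicates 1 and 3. A sum follows its largest values, and the members' medians lay further apart. The median was 26.4 RPM in normal pressure replicate 2, against 63 and 74.5 RPM in replicates 1 and 3. Under hypoxia the medians were 69.9, 71.2 and 70.8 RPM. The rule chose the members by such values, so nothing is read from these medians.

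Between the groups, none of the 94 was called by the test used over all circRNAs, which does not show that none differed. Limma called 64 of 15737 circRNAs tested at an adjusted p under 0.05, or 0.407%, and 0 of the 94 members. At an unadjusted p under 0.05 it had 16 of the 94, against 8.60% over all circRNAs tested. The rule limits the ratio of group means and picks wide spreads, so nothing is read from these counts. The ratio of the hypoxia mean to the normal pressure mean ran from 0.278 to 3.55 with a median of 1.25, and 63 members had the higher mean in hypobaric hypoxia. The median log2 difference was 0.60 over the members and 0.18 over all circRNAs tested. Without normal pressure replicate 2 these medians were 0.13 and 0.06. The members were chosen by spreads in which replicate 2 was most often the low library. That choice favours such a fall, so nothing is read from it.

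The rule asks for a wide spread within a group and for group means under 4-fold apart. This makes groups without overlap unlikely, so nothing is read from their number. Groups that did not overlap were found in 3 of the 94, against 16.6% of the abundance range and 14.0% of all circRNAs tested. All 3, named after their values were seen, were higher in hypobaric hypoxia, where 7.31% of the abundance range had groups apart in that direction. The most abundant, novel_circ_000663, had 148, 211 and 43.4 RPM at normal pressure and 321, 222.2 and 221.7 RPM under hypoxia. The gap between the groups was small, and replicate 3 of normal pressure was the low one there. The others were novel_circ_026075 and novel_circ_032004, both listed at 0 in normal pressure replicate 2. In novel_circ_032004 the values were 21.9, 0 and 62.3 RPM at normal pressure and 71.9, 93.1 and 71.9 RPM under hypoxia, with a log2 difference of 2.02, a standard error of 0.53 and a limma adjusted p of 0.0637, the lowest among the members.

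Single pairs of libraries showed where circRNAs of this abundance came apart. Normal pressure replicate 2 was 4-fold or more from replicates 1 and 3 in 65 and 67 of the 3010 circRNAs, and from the hypobaric hypoxia libraries in 53 to 61. Replicates 1 and 3 of normal pressure were that far apart in 18, and from the hypoxia libraries in 9 to 18. The 3 pairs of hypobaric hypoxia libraries gave 1, 0 and 2. Pairs that include the shallow library stood apart from all others, whichever group the partner came from.

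At equal depth the numbers rose for every pair, with pairs of the shallow library still highest and hypoxia pairs still lowest. When reads were drawn at random so that each library kept about 151364, in 21 draws, pairs with normal pressure replicate 2 had 75.0 to 92.5 circRNAs 4-fold or more apart on average, the pair of replicates 1 and 3 had 47.9, pairs of either with a hypoxia library had 37.1 to 54.2, and hypoxia pairs had 25.9 to 29.7. Within groups, 161 ± 10.9 circRNAs of the abundance range had a 4-fold spread over the normal pressure libraries and 61.4 ± 7.29 over the hypobaric hypoxia libraries (SD over draws, which share the same libraries and are not replicates). As deposited these were 97 and 3. Of the 92 members wide in normal pressure, 43 had the 4-fold spread in each of the 21 draws and 0 had it in none. The draws leave replicate 2 as it is and take reads from the others. The members were chosen for this same spread, and those at 0 in replicate 2 stay at 0, so nothing is read from the 43.

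**Figure D4:**
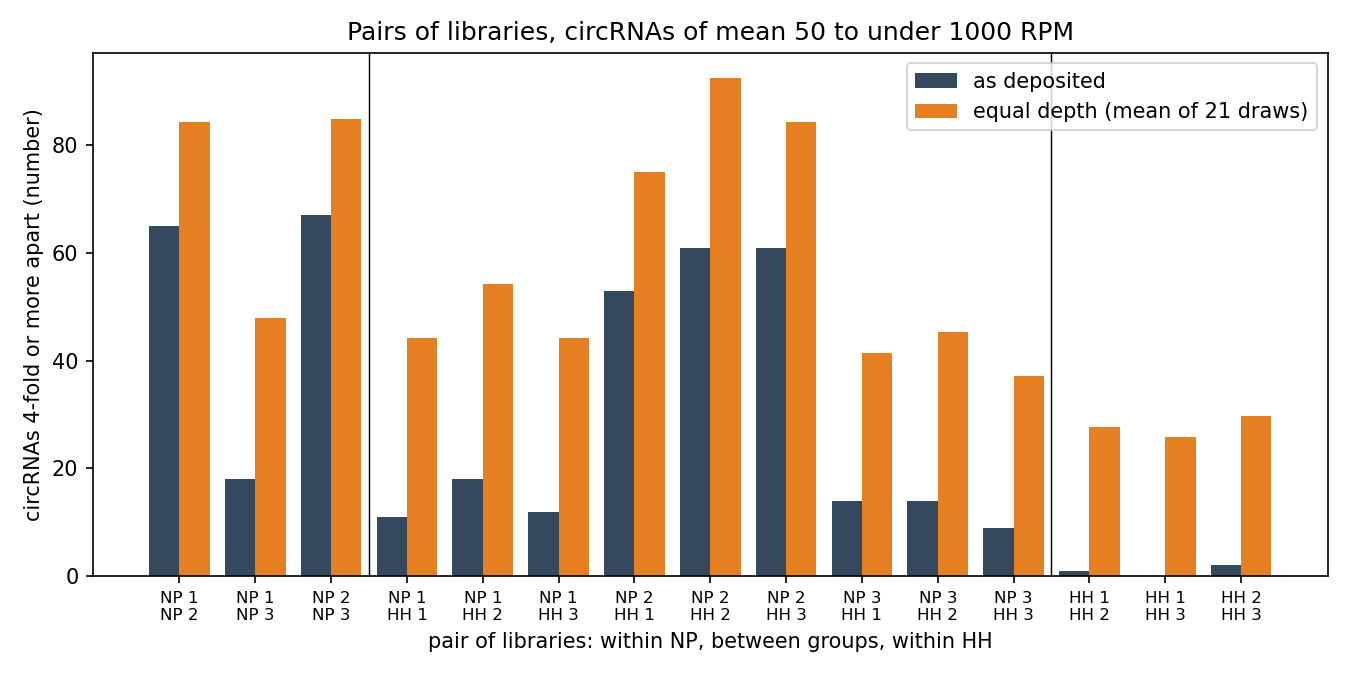
Number of circRNAs of mean 50 to under 1000 RPM that were 4-fold or more apart between 2 libraries, for each pair within normal pressure (NP), between groups and within hypobaric hypoxia (HH), as deposited (dark bars, of 3010) and at equal depth (orange bars, mean of 21 draws). Pairs with NP 2 have the tallest bars of either colour, and the 3 HH pairs, at 0 to 2 as deposited and 25.9 to 29.7 at equal depth, have the lowest.

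Without normal pressure replicate 2 the same rule on the other 5 libraries found 17 circRNAs, 15 of them among the 94. Without replicate 1 or 3 it found 59 and 57, and without a hypobaric hypoxia library 86 to 88. Most of the set thus met the rule only with replicate 2 included. The same values chose the members, and a spread over fewer libraries cannot be wider, so nothing more is read from these numbers. The 17 members in which replicates 1 and 3 of normal pressure were 4-fold or more apart from each other include novel_circ_044166, novel_circ_032566, novel_circ_042186 and novel_circ_001985, whose values are given above.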

How the data were processed

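Libraries were made from ovarian RNA freed of ribosomal RNA and digested with RNase R, strand-specific, and sequenced on a DNBSEQ-G400, per the labels' protocols. BWA, Bowtie2 and GRCm38 are named in the submitters' processing notes. Which circRNA caller, filters and annotation were used is not given in the sources used here. Per the file headers, the values the authors deposited are RPM, scaled to one total per library over the listed circRNAs, so they are relative abundances. Read numbers were recovered from the RPM steps: 100% of values above 0 were within 0.05 of a whole number when the smallest is 2 reads. They were used for depth, exact Poisson intervals (95%) and thinning. The planned count tests were not run, because the RPM steps start at 2 reads and did not qualify as deposited counts.

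Groups were compared in R 4.3.3 with limma 3.58.1 on log2(RPM + 4.765), with intensity trend and robust variances, without covariates, as a two-sided test over circRNAs above 0 in at least 3 of 6 libraries, with Benjamini-Hochberg adjustment over all of them. This scale understates changes of scarce circRNAs. The test and the rule were also run on simulated reads as a self-test. For the rule these stood for circRNAs of 100 RPM or more, while most members are scarcer. Nothing about the members is read from the simulations. Python 3.11.15, numpy 2.4.6, pandas 2.3.3 and scipy 1.17.1 were used otherwise. The members, the named-circRNA rule and the alternatives were chosen with earlier results of these data known. Named were, for each library, the members of widest spread with that library highest and lowest, the 3 of highest mean, those next to the 4-fold limit and the longest run of IDs. Others are said to be chosen after their values were seen. Alternatives changed the pseudocount, limits, scaling, variance model, depth, replicate block and libraries included.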

Additional observations from a re-analysis of the deposited data

How the results depend on the processing

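The 94 members became 40 with a pseudocount of 19.1 RPM, 226 and 41 with a spread limit of 3-fold and 6-fold, 12 from 100 RPM up and 207 at equal depth (73 shared). Leaving out 1 library gave 17 to 88, lowest without normal pressure replicate 2. Added after seeing the data, 92 had counting intervals apart and 67 had no 0. The share of circRNAs wide in normal pressure that had a 2-fold hypoxia spread, 12.4%, became 2.22% with the larger pseudocount (4.72% over the rest), 0% from 100 RPM up (3.68%), 37.6% at equal depth (24.5%) and 4.30% to 13.3% when single libraries were dropped. It was below the rest with the larger pseudocount, from 100 RPM up, without normal pressure replicate 3 (4.84% against 9.66%) and in the added range of 50 to under 100 RPM (14.5% against 15.5%). Leaving out circRNAs at 0 in all hypoxia libraries, also added after seeing the data, it was 12.9% (9.54% over the rest). The 64 limma calls became 27 with a pseudocount of 1.19 RPM, 42 where all 6 libraries had to show the circRNA, 40 at equal depth, and 0 with plain variances (no trend, not robust), where 1408 had an unadjusted p under 0.05. Dropping normal pressure replicate 1, 2 or 3 gave 6, 58 and 4 calls, and dropping hypoxia replicate 1, 2 or 3 gave 41, 21 and 27. After quantile normalization the median log2 difference was 0.02 over all circRNAs tested and 0.66 over the members. The 0 members called by limma (16 at an unadjusted p under 0.05) became 4 with the larger pseudocount, 4 with quantile normalization, 2 without the filter, 2 with library weights, 2 at equal depth and 0 to 2 when single libraries were dropped, with 2 without normal pressure replicate 2. With the replicate number as a block, 7 members and 65 circRNAs were called by limma. The labels do not say that equal numbers mark pairs, so the numbers were not taken as pairs. Deviations from group means had correlations of -0.0023, -0.024 and 0.0027 between libraries of equal number. These cannot decide whether pairs exist, because counting error can hide a correlation. For these changes the cause was not tested, except that stricter limits hold fewer circRNAs by construction. Depth limits normal pressure replicate 2 most, where the smallest listed value is 13.2 RPM.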
